A study of Saccharomyces cerevisiae with 24 samples.

Results

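The genes described here are 6 Saccharomyces cerevisiae transporters of carboxylic acids or of their family: the monocarboxylate permease homologues MCH1, MCH2, MCH4 and MCH5, the lactate permease gene JEN1 and the acetate transporter gene ADY2. They were chosen by gene symbol, and all 6 symbols were in the probe table, with 12 probes among 4069 named genes. The list was drawn up with fitted ratios of these same arrays known, so the ratios of its members are given as a description. Counts of members called by limma are given too, but nothing is read from them. RNA of 8 adapted mutants was hybridised on 2-colour arrays, each against RNA of a strain known by its fluorescent marker. DsRed was the reference for M1, PR-438, PR-338 and PR-164, GFP for PG-353, PG-259 and PG-132, and YFP for PY-231. Each mutant had 3 arrays, 1 on each of 3 slides, as read from the array numbers and positions in the labels. Growth is labelled as liquid culture with glucose-free YNB minimal medium and biomass hydrolysate at 1 g/mL, and whether these formed 1 medium is not said. The labels name no mutation and no further genotype, and each mutant is 1 named isolate, so isolate and place on the slide cannot be told apart.

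Hydrolysates of plant biomass carry acetic acid and other weak acids beside their sugars. Budding yeast takes up lactate, pyruvate and acetate through proton-coupled permeases. Jen1 is the main lactate and pyruvate permease, and Ady2, also called Ato1, imports acetate. Both genes are repressed by glucose and are induced when cells live on non-fermentable carbon. The MCH genes were named for their likeness to the monocarboxylate permeases of mammals. Among them only Mch5 has a role that is well established, as the riboflavin transporter of the plasma membrane, under control of the proline regulator Put3.

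By the R64 gene table, the 6 genes lie on 4 chromosomes. MCH2 (YKL221W, chromosome XI, 6107 to 7528) and JEN1 (YKL217W, chromosome XI, 22234 to 24084) lie close together near the left end of chromosome XI. MCH4 (YOL119C) runs from 94856 to 96361 and MCH5 (YOR306C) from 889867 to 891432 on chromosome XV. MCH1 (YDL054C) runs from 359825 to 361285 on chromosome IV, and ADY2 (YCR010C) runs from 132273 to 133124 on chromosome III. Their coding lengths range from 283 residues for ADY2 to 616 for JEN1.

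Values are log2 of mutant over reference, centred on the median of the named probes of each array, so that 0 is the level of the median gene. The mutant was in Cy5 on slides 1 and 3 and in Cy3 on slide 2. Which channel is on top in slide 2 is unstated, and mutant over reference was taken there too. That is the likely direction, because array medians were 2.44 to 5.41 on slide 2 and 0.22 to 1.41 on the others, and because the mating-type genes of M1 had the same sign on slides 2 and 3. Arrays of 1 mutant with opposite dyes nevertheless correlated at a median of -0.31. With the opposite reading, 14 of the 48 ratios of 6 genes in 8 mutants turned sign. Each array held 15647 to 15737 spots with a ratio, of which 2.14% to 8.28% were at or below 0 and were left out. Across the genes with a pair of probes, those probes correlated at 0.29 to 0.93 on 23 arrays and at -0.01 on PY-231 replicate 1. That array stayed in. Leaving it out turned none of the 48 signs, but the ratios of mutants other than PY-231 could move only through the dye term. Arrays of 1 mutant with the same dye orientation correlated at 0.03 to 0.49. In M1, 3 of 6 a-cell genes (BAR1, MFA2 and STE2) were called higher and 1 of 4 alpha-cell genes (STE3) lower by limma, with list medians of 2.52 and -3.39. In the other 7 mutants 0 of these genes were called, with a-cell medians of -0.26 to 0.29 and alpha-cell medians of -0.98 to 0.43. In the mean of the 8 mutants, MF(ALPHA)2 and SAG1 were called lower. The array labelled M1 replicate 1 stood apart: STE2 was at -0.24, 3.92 and 4.29 on slides 1, 2 and 3 of M1, and STE3 at 0.56, -6.13 and -5.71. Each fitted M1 value of a transporter is therefore also given without that array. The part of mating type in the transporter values was not tested.

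JEN1 had a fitted ratio above 0 in 7 of the 8 mutants as the slides were read here, and in 5 with slide 2 turned. Its level differed more from array to array than that of any other gene of the set. Its ratio ranged from -1.29 to 2.62 over the 24 arrays, and 18 of them were above 0. The SD over arrays was 0.96, above that of 90.1% of all genes, which had a median SD of 0.41. JEN1 was also the gene of the set whose probes moved together. They correlated at 0.87 over 24 arrays and had the same sign on 22 of them, whereas the median over all genes was 0.57.

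Against the DsRed reference, JEN1 was above 0 on all 3 arrays of PR-438, PR-338 and PR-164. In PR-438 it was at 0.50, 0.74 and 1.19 on slides 1, 2 and 3. In PR-338 it was at 0.23, 0.21 and 1.73, and in PR-164 at 0.04, 0.42 and 2.06. Slide 3 thus held the highest value of each of these mutants. M1 stood apart on slide 2, with -0.10, -1.29 and 0.61.

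Against the GFP reference, slide 3 never held the highest value. PG-259 had 2.62, 1.38 and -0.56, so slide 3 had the opposite sign to slides 1 and 2. PG-353 had 0.21, 2.22 and 0.57. PG-132 had -0.16, 1.61 and -0.70, with slide 2 alone above 0, and PY-231 against the YFP reference had -0.10, 1.05 and 0.83.

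The fitted ratio of JEN1 was highest in PG-259 at 1.18 ± 0.56, which is 2.27-fold (SE of the limma fit, n = 3 arrays, as for all fitted values). PG-353 followed at 1.04, PR-164 at 0.88, PR-438 at 0.85, PR-338 at 0.76, PY-231 at 0.63, PG-132 at 0.29 and M1 at -0.22, or -0.34 without M1 replicate 1. Neighbours in this order were at most 0.51 apart, which is under the SE of a single ratio. In the mean of the 8 mutants JEN1 was at 0.68 ± 0.21, or 1.60-fold. This order depended on the direction of slide 2. With slide 2 read the other way PG-259 was at 0.00 and M1 was highest at 0.37, PG-353, PG-132 and PY-231 were at -0.71, -1.05 and -0.33, and the mean was -0.12. The means without slide 1, 2 or 3 were 0.76, 0.56 and 0.60.

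**Figure D1:**
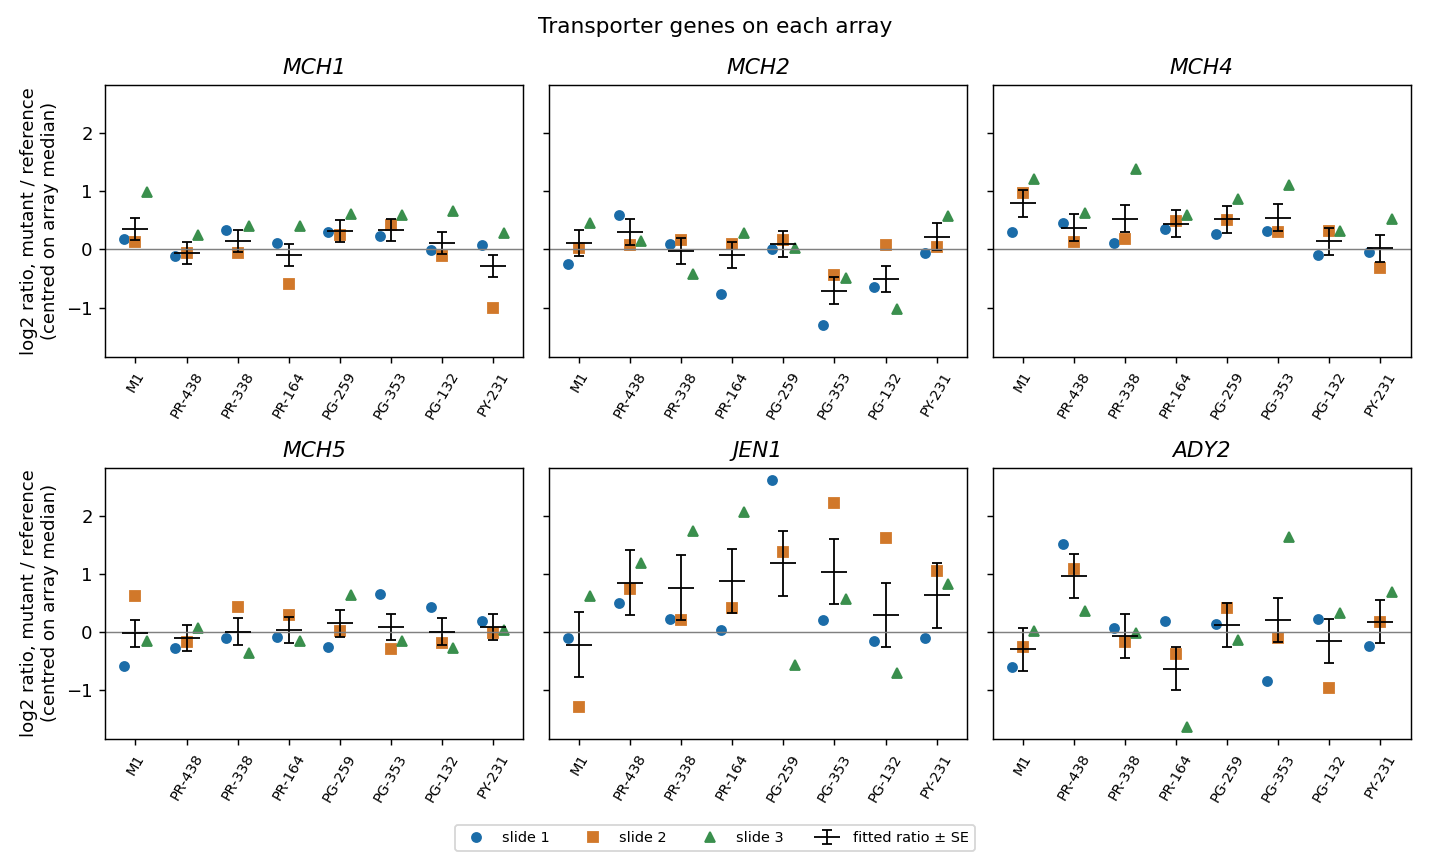
Log2 ratio of mutant over reference for the 6 transporter genes (y axis) in each mutant (x axis), with 1 marker per array by slide and the fitted ratio ± SE in black. JEN1 spreads from -1.29 to 2.62, MCH4 is above 0 on 21 of 24 arrays, and MCH5 stays between -0.58 and 0.65.

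MCH4 had positive fitted ratios in all 8 mutants as the slides were read here. It lay above the median gene on 21 of 24 arrays, and the values ran from -0.31 to 1.39. M1 had 0.30, 0.97 and 1.21 on slides 1, 2 and 3, PR-438 had 0.46, 0.13 and 0.62, and PR-164 had 0.35, 0.48 and 0.59. PR-338 had 0.11, 0.17 and 1.39. PG-259 had 0.27, 0.51 and 0.87, and PG-353 had 0.33, 0.29 and 1.11. In these 6 mutants all 3 arrays lay above 0. PG-132 had -0.10, 0.32 and 0.31 and PY-231 had -0.05, -0.31 and 0.52, so the arrays of these mutants lay on both sides of 0.

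Fitted MCH4 ratios ran from 0.02 ± 0.23 in PY-231 to 0.79 ± 0.23 in M1 (1.73-fold), with a mean over the mutants of 0.42 ± 0.09, or 1.34-fold. Without M1 replicate 1 the M1 ratio was 1.09 ± 0.26. With spots at or below 0 given the lowest ratio, M1, PG-353 and PG-132 were at -0.43, -0.69 and -0.77. With slide 2 turned, M1 was at 0.04, PG-132 was lowest at -0.18 and PR-338 highest at 0.30. Of all genes, 2.92% had a fitted ratio above 0 in all 8 mutants. For MCH4 this rested on PY-231, which fell below 0 under several other settings. These were the fit without slide 3, centring on all probes, each reference fitted alone and the first probe alone. PG-353, PR-338 and PG-259 lay between 0.52 and 0.54, PR-164 at 0.44, PR-438 at 0.37 and PG-132 at 0.14, each less than 1 SE from the next.

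The probes of MCH4 did not move together. They correlated at -0.71 over 21 arrays, lower than in all but 0.0246% of the genes, and had the same sign on 11 of them. On PR-338 replicate 3 the first probe was at -1.80 and the second at 4.58, so the value of 1.39 there is the middle of opposite readings. Without that array the correlation was -0.27. The other 3 arrays had only 1 usable probe, since the other spot was at or below 0. Taken alone, the first probe gave a mean of 0.33 ± 0.13 over the mutants and the second 0.51 ± 0.21. In PR-338 the first probe gave -0.52 ± 0.32 and the second 1.57 ± 0.57. With the spots at or below 0 set to the lowest positive ratio of their array, the mean was 0.07 ± 0.25.

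**Figure D2:**
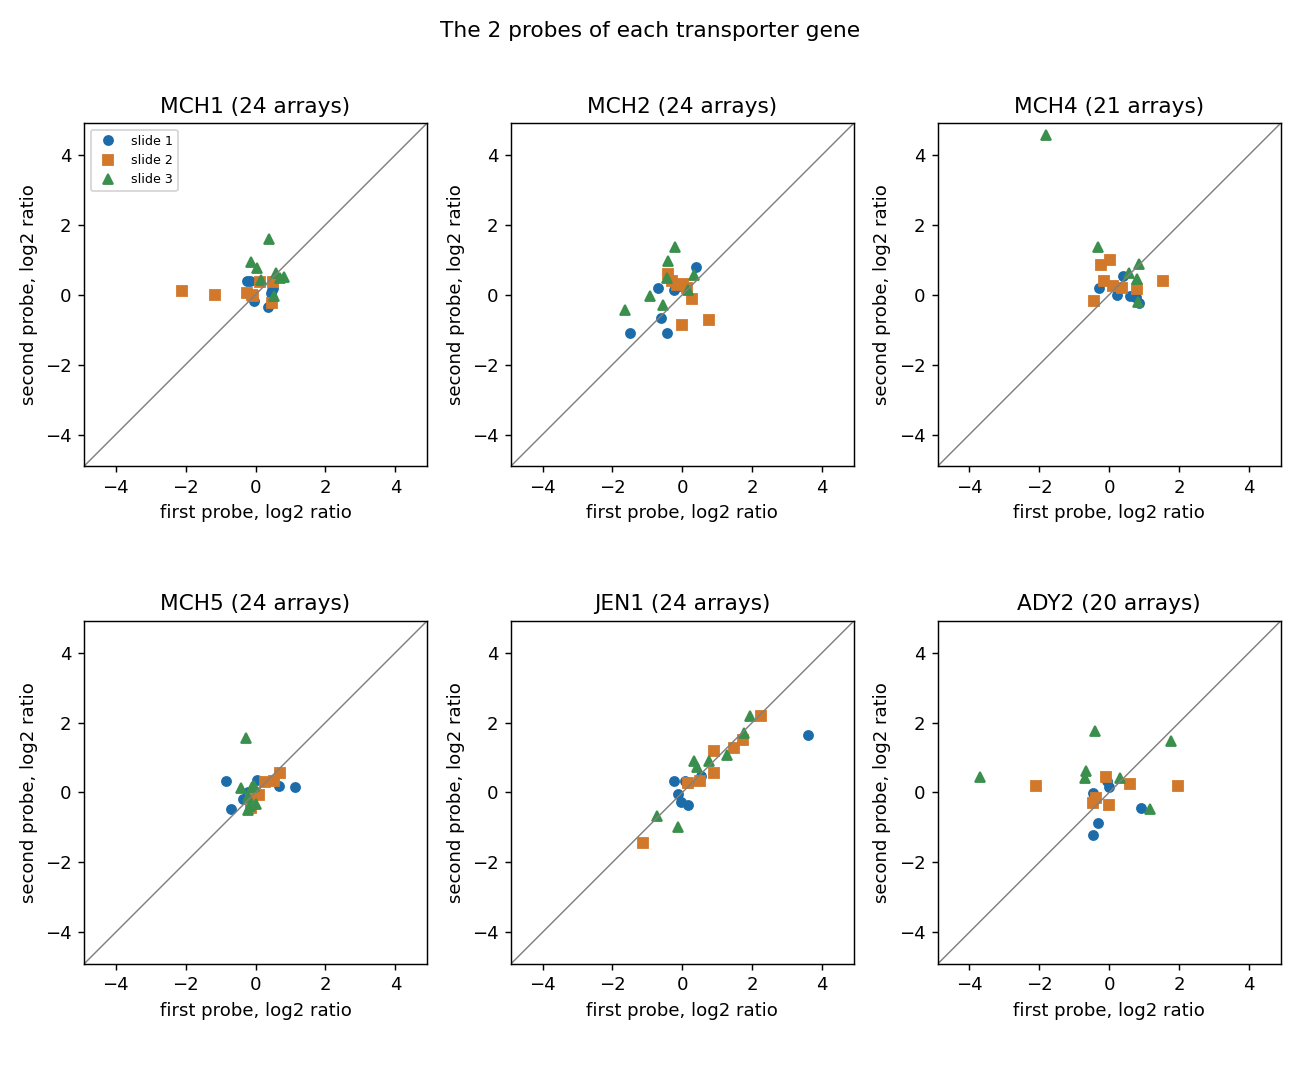
Log2 ratio of the second probe (y axis) against the first probe (x axis) of each transporter gene, with 1 marker per array where both spots were above 0 and the line of equal values in grey. JEN1 lies along the line (r = 0.87), whereas MCH4 and ADY2 have arrays with probes 6.38 and 4.15 apart.

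As the slides were read here, ADY2 was highest in PR-438 and lowest in PR-164, mutants that share the DsRed reference. PR-438 had 1.51, 1.08 and 0.36 on slides 1, 2 and 3, all above 0, and a fitted ratio of 0.96 ± 0.38 (1.95-fold). PR-164 had 0.19, -0.38 and -1.63, and a fitted ratio of -0.63 ± 0.38. The lowest array of PR-438 was thus above the highest of PR-164. These mutants are the ends of the order, and the share of all genes that part 2 mutants in this way was not counted. The other 6 mutants had fitted ratios from -0.30 in M1 (-0.12 without M1 replicate 1) to 0.21 in PG-353, and in PG-353 the arrays ran from -0.84 to 1.63. With slide 2 turned, PR-438 was at 0.25, PG-132 was highest at 0.49 and PR-164 stayed lowest at -0.37.

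These ADY2 values rested on probes that differed. They correlated at 0.02 over 20 arrays, and 8.33% of the 48 spots were at or below 0. On PR-164 replicate 3 they were at -3.70 and 0.45. On PR-438 replicate 1 only 1 probe had a value, and on replicate 2 the probes were at 1.96 and 0.20. In PR-164 the second probe alone gave 0.07 in place of -0.63. With the spots at or below 0 set to the lowest positive ratio, PR-438 was at -0.24 in place of 0.96.

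MCH2 was lowest in PG-353 and PG-132, both against the GFP reference. PG-353 had -1.29, -0.44 and -0.49 on slides 1, 2 and 3, all below 0, with a fitted ratio of -0.71 ± 0.23 (0.61-fold). PG-132 had -0.65, 0.07 and -1.03, with a fitted ratio of -0.50 ± 0.23. PG-259, with the same reference, had 0.02, 0.16 and 0.02. In PR-438 all 3 arrays were above 0, at 0.59, 0.08 and 0.15. M1 was at 0.11, or 0.24 without M1 replicate 1. The fitted ratio of PG-353 stayed below 0 under all 18 alternative settings, between -0.89 and -0.42, and that of PG-132 between -0.84 and -0.29. Not all settings could change these values. The replicate block, the median of the probes and the limit to genes with all probes above 0 left them as they were. Leaving out 1 array of another mutant reached them only through the dye term. The probes of MCH2 correlated at 0.29 and shared a sign on 12 of 24 arrays. In PG-353 they were at -1.49 and -1.09 on slide 1, at -0.02 and -0.86 on slide 2 and at -0.94 and -0.04 on slide 3. Both were therefore below 0 on each array of PG-353, by unequal amounts.

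MCH1 and MCH5 had smaller fitted ratios, and both depended on slide 2. MCH1 had fitted ratios from -0.29 ± 0.19 in PY-231 to 0.35 ± 0.19 in M1, which was 0.55 without M1 replicate 1. Its mean over the mutants was 0.10 ± 0.07. With slide 2 turned PY-231 was its highest mutant, at 0.42, and the mean was 0.23, and without slide 2 the mean was 0.33. In PR-164 its probes gave -0.59 and 0.39. All 8 arrays of slide 3 were above 0 for MCH1, between 0.25 and 0.98, while slide 2 ran from -1.01 to 0.43. MCH4 also lay above 0 on all 8 arrays of slide 3, as did 7.26% of all genes. MCH1 was above 0 on every array of M1, PG-259 and PG-353. Its lowest array, PY-231 replicate 2, had probes at -2.11 and 0.10.

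MCH5, the riboflavin transporter gene, had the narrowest range of fitted ratios of the set as the slides were read here, but not with slide 2 turned. Its fitted ratios ran from -0.10 ± 0.23 in PR-438 to 0.15 ± 0.23 in PG-259, and in no mutant did its 3 arrays share a sign. The arrays of M1 were at -0.58, 0.62 and -0.16, with a fitted ratio of -0.02, or 0.23 without M1 replicate 1. With slide 2 turned MCH5 ran from -0.47 in M1 to 0.25 in PG-353, a span of 0.72, against 0.40 for MCH1 and 0.48 for MCH4. Neighbouring mutants in the order of MCH5 were at most 0.08 apart.

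Over the whole table, limma with Benjamini-Hochberg adjustment called 60 of 32552 gene and mutant pairs, or 0.184%, of which 6 were higher and 54 lower. Of the 48 pairs of a transporter gene and a mutant, 0 were called and 8 had an unadjusted p under 0.05. Over all genes 3235 of the 32552 pairs had such a p. Per mutant, the share of genes called was 0.0% in PY-231, 0.295% in PR-438, 0.123% in PR-338, 0.516% in PR-164, 0.0492% in PG-259, 0.0246% in PG-353, 0.221% in PG-132 and 0.246% in M1. Only PR-338, PR-164 and M1 had any gene called higher, at 0.0246%, 0.0246% and 0.0983%, and those called lower made 0.0983%, 0.492% and 0.147%. With the replicate number as a block, 1 transporter pair was called, MCH4 in M1. In the mean of the 8 mutants 13.3% of all genes were called, 2.06% higher and 11.2% lower, and 2 of the 6 transporter genes were among them, JEN1 and MCH4, both higher. The list was made with this fit known, so nothing is read from these counts. With 1 probe alone, MCH4 did not pass in that mean, nor did JEN1 with any 1 slide or PR-338 replicate 3 left out. With slide 2 turned neither gene passed and MCH1 did, and without slide 2 MCH1 passed beside MCH4.

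**Figure D3:**
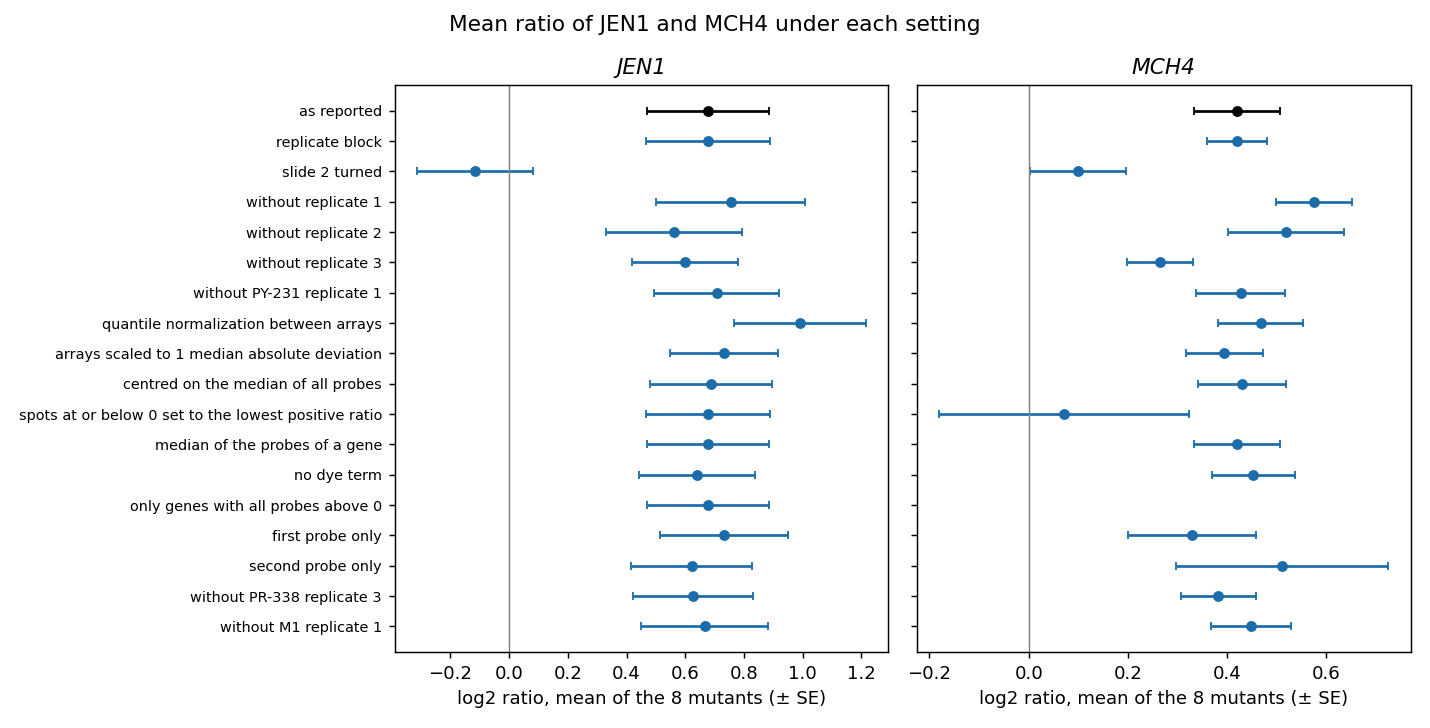
Mean log2 ratio ± SE of JEN1 (left) and MCH4 (right) over the 8 mutants (x axis) as reported and under each alternative setting (y axis). JEN1 lies between 0.56 and 0.99 except with slide 2 turned, at -0.12. MCH4 lies between 0.26 and 0.57 except with slide 2 turned and with spots at or below 0 given the lowest ratio, at 0.10 and 0.07.

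Among the closest relatives of the set, ESBP6 and ATO2 were measured and had 0 calls by limma in any mutant or in the mean. Over all genes, 0.184% of the pairs were called, and 13.3% of genes in the mean, so nothing is read from this. ESBP6, also named MCH3, is the remaining member of the MCH family. Its probes correlated at 0.66, and its mean over the mutants was 0.09 ± 0.11. It ran from -0.28 ± 0.29 in M1 to 0.49 ± 0.29 in PR-438, and M1 was at 0.12 ± 0.32 without M1 replicate 1. ATO2, a paralogue of ADY2 that takes part in ammonium export, had a mean of 0.50 ± 0.22 (adjusted p = 0.133 by limma). On PR-338 replicate 3 it reached 4.15, beside 0.38 and -0.32 on replicates 1 and 2. ATO3 was not analysed here.

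Some genes of lactate and acetate use fell in the mean of the mutants. Of 11 genes, 3 fell and 0 rose by limma, beside 11.2% and 2.06% of all genes. The median was 0.03, against 0.00 over all genes. ACH1, a mitochondrial CoA transferase that handles acetyl groups, fell by 0.57 ± 0.17 (adjusted p = 0.027). DLD1, the mitochondrial D-lactate dehydrogenase, fell by 0.45 ± 0.13 (adjusted p = 0.0247), and ACS2, the acetyl-CoA synthetase of glucose-grown cells, fell by 0.26 ± 0.07 (adjusted p = 0.0212). ACH1 and DLD1 were low on slide 2 in particular, at -2.60 and -2.03 in PR-438. Without slide 2 both means were above 0, at 0.44 and 0.03, and with slide 2 turned all 3 genes were above 0. Without slide 1 neither ACH1 (adjusted p = 0.165 by limma) nor DLD1 (0.0906) passed, and without slide 3 neither DLD1 (0.076) nor ACS2 (0.0851) did. ACS2 also did not pass without slide 2, at -0.17 (adjusted p = 0.202 by limma), and its first probe gave -0.48 where the second gave -0.05 (adjusted p = 0.8). The first probe of ACH1 alone gave -0.42 (adjusted p = 0.151). DLD3, a cytosolic lactate dehydrogenase, had -0.38 ± 0.14 (adjusted p = 0.0715). ACS1, the acetyl-CoA synthetase repressed by glucose, had 0.30 ± 0.15 (adjusted p = 0.19), and CYB2, the L-lactate cytochrome c oxidoreductase that uses the lactate brought in by Jen1, had 0.21 ± 0.13 (adjusted p = 0.297). ACS1 and CYB2 fall outside the rule for named genes and were chosen after their values were seen.

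Among the regulators of JEN1 and ADY2 a single gene passed. Of 12 genes, 1 fell and 0 rose, beside 11.2% and 2.06% of all genes, with a median of 0.11. REG1, which directs the Glc7 phosphatase against the Snf1 kinase in glucose repression, fell by 0.26 ± 0.07 (adjusted p = 0.0206 by limma), with -0.02 when slide 2 was turned and an adjusted p of 0.166 without slide 3. RDS2, a zinc cluster regulator of gluconeogenesis, had 0.23 ± 0.09 (adjusted p = 0.0839) and HAP2, a subunit of the respiratory CCAAT-binding complex, had 0.18 ± 0.09 (adjusted p = 0.196). In M1 2 of the 12 regulators lay above 0, with a median of -0.15 (4 of 12 and -0.20 without M1 replicate 1), against 5 to 11 in the other mutants, and this difference was not tested.

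Among 9 genes of weak acid entry and export, 1 fell and 0 rose, beside 11.2% and 2.06% of all genes. Their median was -0.05. TPO2, a plasma membrane exporter under the acetic acid regulator Haa1, fell by 0.46 ± 0.09 (adjusted p = 0.0012 by limma). Its mean was between -0.47 and -0.25 with any 1 slide left out, and 0.22 with slide 2 turned. PMA1, the proton pump that builds the gradient used by Jen1 and Ady2, had -0.45 ± 0.21 (adjusted p = 0.162), and WAR1, the activator of the acid exporter gene PDR12, had 0.15 ± 0.10 (adjusted p = 0.33).

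The 7 mitochondrial carboxylate carriers measured of 10 and the 13 genes of flavins and the Put3 regulon had 0 calls by limma. In the mean of the mutants 13.3% of all genes were called. There 2 and 1 of the list genes had an unadjusted p under 0.05, as did 1219 of the 4069 genes. SFC1, the succinate-fumarate carrier, had 0.30 ± 0.14 (adjusted p = 0.148), OAC1, the oxaloacetate carrier, had 0.24 ± 0.10 (adjusted p = 0.113) and ODC1, an oxodicarboxylate carrier, had 0.15 ± 0.10 (adjusted p = 0.321). PUT3, the activator of MCH5, had 0.29 ± 0.10 (adjusted p = 0.0537), with 0.63, 0.52 and 2.36 on the arrays of PG-259. RIB7 and RIB2 of riboflavin synthesis had 0.11 ± 0.11 (adjusted p = 0.525) and -0.11 ± 0.06 (adjusted p = 0.23). In single mutants 0 of 624 pairs of a gene of these lists or a chromosomal neighbour and a mutant were called by limma. Over all genes 0.184% of the pairs were called. Of the 624 pairs, 59 had an unadjusted p under 0.05, beside 3235 of the 32552 pairs of all genes. Moderated F tests among the 4 mutants with the DsRed reference and among the 3 with the GFP reference called 0 of the 4069 genes. The DsRed test also missed the mating-type genes that set M1 apart on slides 2 and 3. Their lowest adjusted p in this F test was 0.393, for BAR1. The 0 calls therefore do not show that these mutants were alike.

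**Figure D4:**
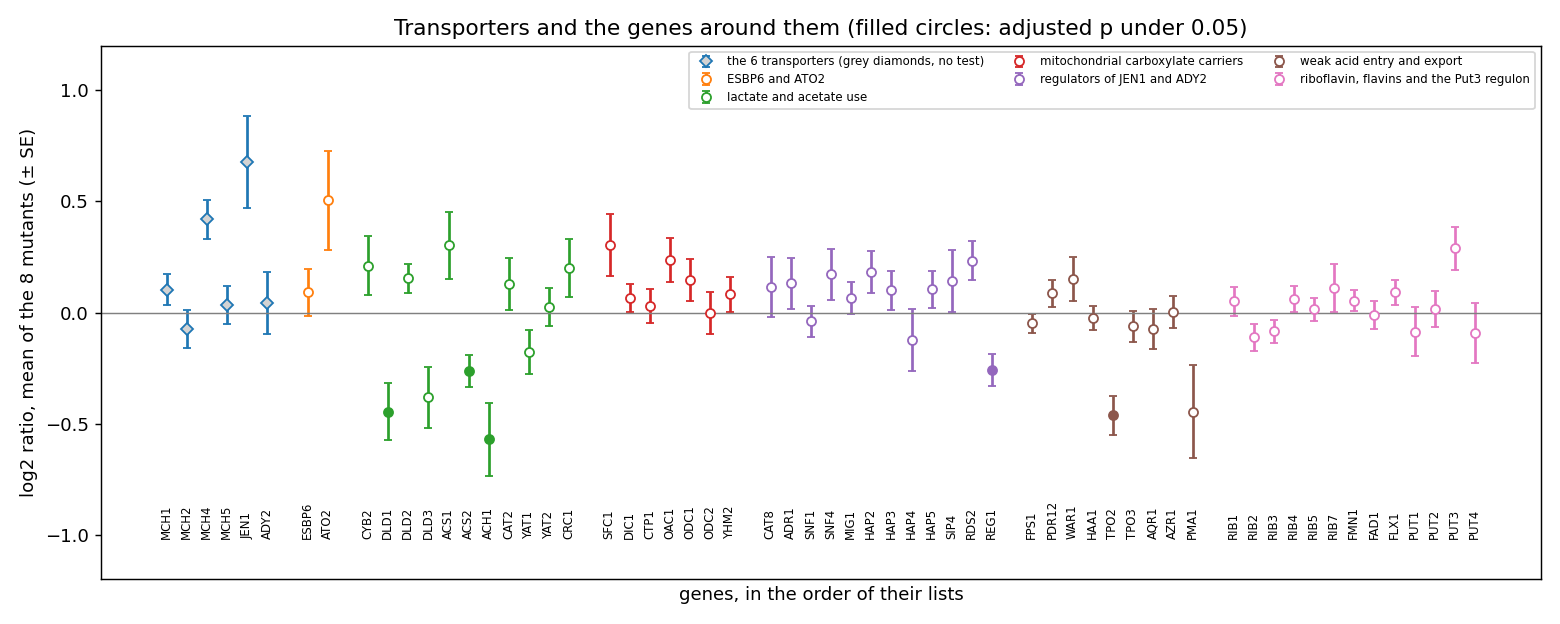
Mean log2 ratio ± SE over the 8 mutants (y axis) for the 6 transporters (grey diamonds) and the genes of 6 further lists (circles, by list along the x axis), filled where limma called the gene. The 5 filled circles, DLD1, ACS2, ACH1, REG1 and TPO2, all lie below 0. The 6 transporters, drawn without calls, run from -0.07 for MCH2 to 0.68 for JEN1. With slide 2 turned, ACH1, DLD1, ACS2 and TPO2 were above 0 and JEN1 was below 0. Of all genes, 11.2% were called lower and 2.06% higher in this mean.

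The genes most like each transporter over the 24 arrays were found after the mean of each slide was subtracted, among 4035 others. These Pearson correlations describe values that share arrays, slides and references. JEN1 was closest to ECM13 (0.88), NDI1, the internal NADH dehydrogenase of mitochondria (0.88), and PET494, a translational activator of a cytochrome c oxidase subunit (0.86). MCH5 was closest to NRP1 (0.82), DPH2, an enzyme of diphthamide synthesis (0.81), and NOP4, a nucleolar protein of ribosome assembly (0.79). MCH5 and JEN1 correlated at -0.53. MCH2 was closest to the septin gene SPR28 (0.78), RIO1 (0.77) and VAR1 (0.74). The nearest genes of MCH1 (GOT1, BET5 and RKM4), MCH4 (SIR1, TEN1 and ATG5) and ADY2 (VMA1, PTC5 and WSC4) reached only 0.63 to 0.69. Among the transporters themselves the highest value was 0.41, between MCH1 and MCH4.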

How the data were processed

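The deposited table holds 15744 probes on 24 arrays. Its values, per the labels from GenePix result files, are linear ratios of both channels (unit "other" because some are at or below 0). The authors' further steps are not given in the sources used here. Symbols came from the platform annotation: 8152 probes had 1 symbol and 7592 none. Of 4073 symbols, 3940 were current in R64, 125 were updated through a synonym, 4 were kept as written and 4 were unmatched and left out. Ratios above 0 were put on the log2 scale, centred per array on the median of named probes, and averaged per gene. Of the 4069 genes, 4036 had a value on all arrays, as did all 6 transporter genes. No brightness is in the table, so no filter on it was applied. Precision is limited by how many arrays and slides there are.

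All 24 arrays entered 1 limma 3.58.1 fit (R 4.3.3, lmFit and eBayes), with 1 coefficient for each mutant beside a dye term. A call means an adjusted p (Benjamini-Hochberg, over all genes) under 0.05. Slide 2 has the weight of slides 1 and 3 combined in it. This fit also gave the average of the 8 coefficients and the F tests within a reference. Only its M1 coefficient was checked on simulated data, with arrays drawn independently and no shared slides or references. The average and the F tests were not checked in this way. Since ratios are set against 0, spread among reference cultures is not measured. Arrays with the same array number in their labels were read as 1 slide. Their deviations from the mutant means correlated at a median of 0.50 (-0.27 to 0.91), against -0.30 for other numbers. On slide 2 alone the median was 0.75. The fit treats the 24 arrays as independent. Its SE and p-values for the mean of the 8 mutants leave out shared slides and references and may be too small. Plots used matplotlib 3.10.9 and tables pandas 2.3.3, under Python 3.11.15.

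The transporter genes and the gene lists were chosen with earlier results of these data known. Genes were named by rule: all 6 transporters, each list gene called in a mutant, in the mean or by an F test, the 3 of each list with the largest absolute mean over the mutants, and the 3 genes most correlated with each transporter. The lists were the family, lactate and acetate use, mitochondrial carboxylate carriers, regulators, weak acid entry and export, flavins with the Put3 regulon, and the 3 named genes on either side of each transporter, with a-cell and alpha-cell markers. Alternatives changed the slide 2 direction, arrays, scaling, centring, spots at or below 0, probes, dye term, block and fit samples. Single-probe fits and the fits without PR-338 replicate 3 and without M1 replicate 1 were chosen after seeing the data. No sequence was used here.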

Additional observations from a re-analysis of the deposited data

Results flagged for a closer look

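MCH2 was below 0 on all 3 arrays of PG-353 and above 0 on all 3 arrays of PR-438 and of PG-259. In PG-259 its first probe was at -0.18 and -0.43 on slides 1 and 3, and its second at 0.21 and 0.48. On slide 2 of PR-438 the probes were at 0.28 and -0.12. The fitted difference was -1.01 for PG-353 minus PR-438, which have different references, and -0.81 for PG-353 minus PG-259, which share the GFP reference. ESBP6 was below 0 on all 3 arrays of PG-259 and above 0 on all 3 arrays of PY-231 and of PG-353. In PG-259 its first probe was at 0.12 and 0.13 on slides 1 and 3, and its second at -0.28 and -0.29. The fitted difference was -0.43 for PG-259 minus PY-231 and -0.44 for PG-259 minus PG-353. These differences were not tested. With 3 arrays a mutant, 8.50% to 17.4% of all genes lay below 0 on all 3 arrays of a mutant, and 10.1% to 20.7% above.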

How the results depend on the processing

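The 60 gene and mutant pairs called became 123 with the replicate block, 1490 with slide 2 turned, 448 with arrays scaled to 1 median absolute deviation, 3 with no dye term, 32 with the first probe only and 106 when each reference was fitted alone. Leaving out a replicate gave 18 to 134. The split of 6 higher and 54 lower was 15 and 33 after quantile normalization and 94 and 354 after the scaling. The 0 transporter pairs became 1 with the replicate block. The 0 pairs of list genes became 1 with the replicate block, without PY-231 replicate 1, without any 1 replicate (1 to 1) and with the second probe only, 2 after quantile normalization, 8 after the scaling and 21 with slide 2 turned. The count of transporter genes called in the mean of the mutants, 2 (JEN1 and MCH4), was 0 with the second probe only. It was 1 with slide 2 turned (MCH1), with the lowest ratio for spots at or below 0, with the first probe only and with only genes whose probes were all above 0, where 4 of the 6 were tested (JEN1 in each), and with no dye term and without PR-338 replicate 3 (MCH4 in each). Without a replicate it was 1 to 2: MCH4 without replicate 1 or 3, and MCH1 and MCH4 without replicate 2. In that mean 10 of 78 list genes were called, beside 13.3% of all genes. These 10 became 17 with slide 2 turned, 6 with no dye term and 9 to 17 without a replicate. With slide 2 turned, the mean was -0.12 for JEN1, 1.01 for ACH1, 0.48 for DLD1, 0.092 for ACS2, 0.22 for TPO2, 1.75 for PSA1 and 1.39 for RPS19A. With 1 replicate left out it ranged from -0.84 to 0.44 for ACH1, from -0.51 to 0.030 for DLD1, from -0.97 (without M1 replicate 1) to 0.83 for PSA1 and from -1.05 (without M1 replicate 1) to 0.36 for RPS19A, each highest without replicate 2 from all mutants. The cause was not tested. Among the 48 transporter ratios, 14 turned sign with slide 2 turned, 5, 10 and 9 without replicate 1, 2 and 3, 9 with either probe alone and 2 without M1 replicate 1. The mean could not be fitted over all mutants with each reference alone.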

Other observations

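Of 31 chromosomal neighbours of the transporter genes, 24 were measured. Limma called 5 of these 24 in the mean of the 8 mutants, where 13.3% of all genes were called. Nothing is read from this count. Beside MCH1, PSA1, which makes GDP-mannose for the cell wall, fell by 0.92 ± 0.18 (adjusted p = 0.00128) and SLC1, an acyltransferase of phospholipid synthesis, fell by 0.19 ± 0.05 (adjusted p = 0.0126). Beside MCH4, RPS19A, a ribosomal protein gene, fell by 1.03 ± 0.13 (adjusted p = 1.8e-05). Beside ADY2, ADP1, a putative ABC transporter, rose by 0.21 ± 0.06 (adjusted p = 0.027, from 0.00237 to 0.163 over its alternatives) and POL4, a DNA polymerase, rose by 0.16 ± 0.05 (adjusted p = 0.0475, from 0.0246 to 0.525 over its alternatives), while PGK1 of glycolysis had -0.48 ± 0.19 (adjusted p = 0.0984). ADP1 did not pass without slide 1 (adjusted p = 0.104 by limma), without slide 3 (0.0624) or with the second probe alone (0.163), and was at 0.45 without slide 2. SLC1 did not pass without slide 1 (0.0584) or slide 3 (0.0571) and was at -0.31 without slide 2. PSA1 and RPS19A were above 0 without slide 2, and PSA1 then passed in that direction (0.0255). The 3 named genes between MCH2 and JEN1 were at 0.29 for the ferric reductase FRE2, 0.08 for COS9 and 0.18 for SRY1, and none of them was called.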
